A study of Mus musculus with 6 samples.

Results

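The secreted and membrane-anchored metalloproteinases that cut extracellular matrix and cell-surface proteins, and the inhibitors that hold them in check, were followed in whole liver of mice with diet-induced metabolic dysfunction-associated steatohepatitis (MASH). Genes were taken by symbol, as those named *Mmp*, *Adam*, *Adamts*, *Adamtsl* or *Timp* followed by a number. This gave 85 genes of the 55254 in the expression table, made up of 23 MMP, 34 ADAM, 19 ADAMTS, 5 ADAMTSL and 4 TIMP genes.

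Liver RNA came from mice that had eaten CDA-HFD for 7 weeks (n = 3), a choline-free diet rich in fat in which defined amino acids replace protein, and from mice fed normal diet (ND, n = 3). All 6 libraries are labelled WT and biological replicates, and the study's methods name C57BL/6J as the wild-type strain and male mice for the CDA-HFD feeding. The time on ND is not given in the labels, and nothing says more on whether replicates were separate animals, so p-values measure the spread between these libraries. CDA-HFD also restricts methionine, so the lack of choline, the defined amino acids and the fat cannot be told apart as parts of the diet.

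MMPs are zinc proteases that are made as inactive zymogens and, once activated, cleave collagens, elastin, laminin and other matrix proteins. Many ADAMs release the extracellular part of membrane proteins such as cytokines and receptors, ADAMTS proteases cut proteoglycans and trim procollagen, and ADAMTS-like proteins keep the matrix-binding part but have no protease domain. TIMPs bind the active site of these enzymes. In fibrotic liver these genes are known to be made by macrophages, activated stellate cells and bile duct cells, more than by hepatocytes.

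Levels are in TPM, the share of a library's transcripts after correction for transcript length, so that genes can be compared with each other. Fold changes are log2 of CDA-HFD over ND on the scale of TPM + 1, which understates the change of low genes, and are given ± SE from limma. A gene was called when the Benjamini-Hochberg adjusted p over all 14730 tested genes was below 0.05 and the log2 fold change was at least 1 in size. Genes were tested when their mean over the 6 libraries was at least 1 TPM.

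Of the 85 genes, 41 passed this filter, 30 of them were called higher in CDA-HFD livers and 1 was called lower, and 10 were not called. Over all tested genes the same call took 21.1% as higher and 3.79% as lower. A gene that passed the filter only through CDA-HFD livers had to differ, so the count was also read within genes already above 1 TPM in ND livers. There, 12 of 21 protease and inhibitor genes were called higher and 1 lower, beside 15.6% and 4.19% of all such genes. Of the 20 genes with an ND mean below 1 TPM, 18 were called higher, beside 73.8% of all such genes, a share that the filter itself raises. With the adjusted p alone and no fold limit, 36 of the 41 genes were higher and 2 lower, beside 51.6% and 14.4% of all tested genes.

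Among genes with an ND mean of at least 1 TPM, the median log2 fold change was 1.77 for the 21 protease and inhibitor genes and 0.26 for all genes. In 16 of the 21 all 3 CDA-HFD libraries lay above all 3 ND libraries, as they did for 51.3% of all such genes. They lay below for 2, *Mmp19* and *Adam11*, beside 17.8%, and the groups overlapped for 3, *Adam9*, *Adamts7* and *Mmp9*. Over all 41 tested genes the median was 1.87, beside 0.32 for all tested genes, and the groups stood apart with CDA-HFD higher for 36 and lower for 2, beside 54.9% and 16.1%. These values for the 41 are raised by the filter, since 20 of them had an ND mean below 1 TPM. In whole liver, more cells of a type and more RNA per cell cannot be told apart, for these and all results that follow.

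**Figure D1:**
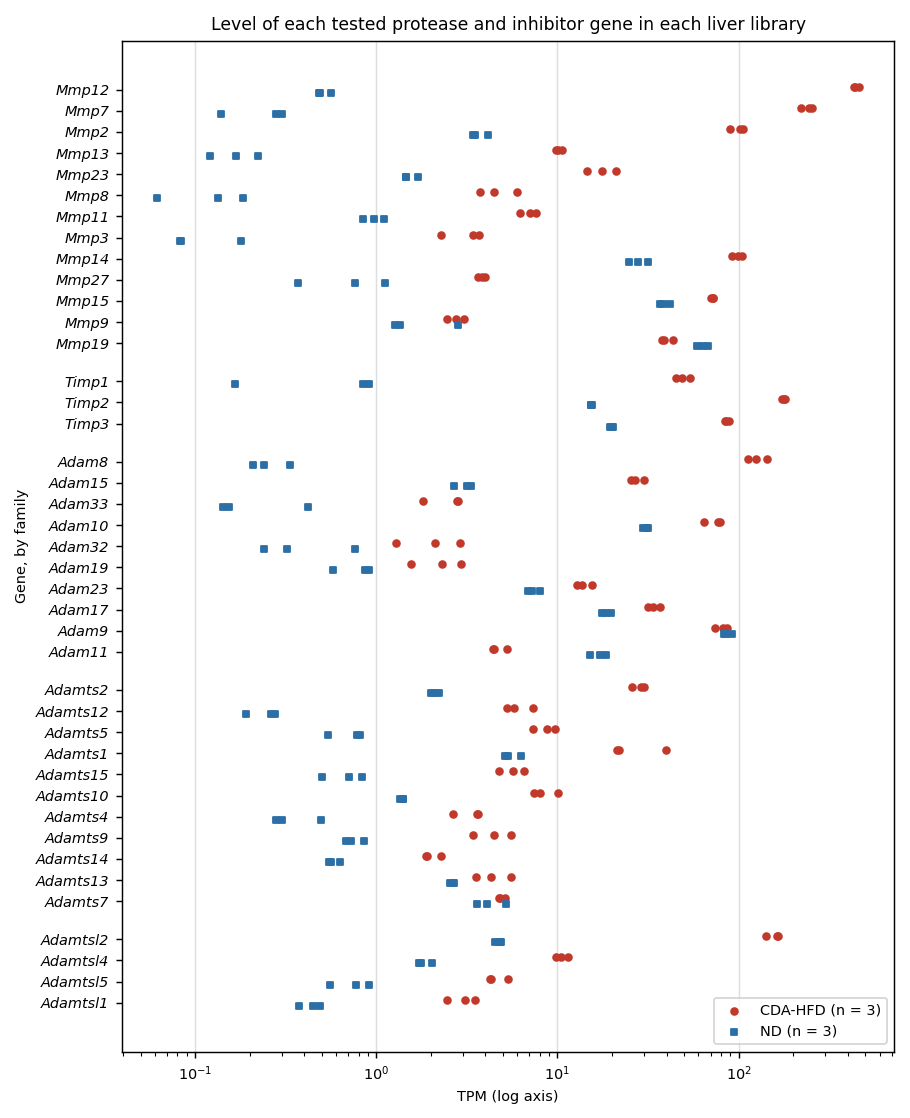
Level of each of the 41 tested genes in each library, in TPM on a log axis, with genes by family down the page (circles, CDA-HFD, squares, ND, n = 3 each, no averages drawn). The groups lie far apart for *Mmp12*, *Mmp7* and *Adam8*, overlap for *Mmp9*, *Adam9* and *Adamts7*, and stand in the opposite order for *Mmp19* and *Adam11*.

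The libraries held 16560805 to 18620253 reads on genes in CDA-HFD and 13957519 to 15096491 in ND, as recovered from the TPM steps. The liver label held, since *Alb*, the main plasma protein made by hepatocytes, was at 12591 ± 701 TPM in CDA-HFD and 15514 ± 116 TPM in ND livers (SD, n = 3 each), although the extraction text in the labels speaks of sorted cells. Markers of other liver cells differed between diets. All 6 macrophage markers were called higher, with a summed level of 3288 to 3583 TPM in CDA-HFD against 301 to 340 TPM in ND livers, and all 6 markers of lipid-associated macrophages, at 2604 to 2848 TPM in CDA-HFD against 233 to 266 TPM in ND livers. Of 8 stellate cell and myofibroblast markers 6 were called higher (1536 to 1632 TPM in CDA-HFD against 315 to 343 TPM in ND livers), and all 5 tested of 6 bile duct cell markers (119 to 130 TPM in CDA-HFD against 9.92 to 11.6 TPM in ND livers). The 6 hepatocyte markers summed to 22192 to 23740 TPM in CDA-HFD and 31478 to 33276 TPM in ND livers, with 1 called lower. All 5 tested T and NK cell markers were called higher, 2 of 5 Kupffer cell markers were called lower and none higher, and endothelial markers had 1 call each way among 6. The 5 Kupffer cell markers summed to 454 to 463 TPM in CDA-HFD and 365 to 420 TPM in ND livers. *Clec4f* and *Timd4* were lower, and *Cd5l* and *Vsig4* higher, in every CDA-HFD library than in any ND library. The part of any of these cell types in the changes below was not tested.

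The genes with the largest rises were MMP genes that were barely read in ND livers. *Mmp12*, which encodes macrophage elastase, was at 433, 463 and 439 TPM in CDA-HFD and at 0.488, 0.565 and 0.483 TPM in ND livers. *Mmp7*, which encodes matrilysin, a small MMP made by epithelia such as bile ducts, was at 221, 245 and 253 TPM in CDA-HFD and at 0.303, 0.281 and 0.139 TPM in ND livers. Within each diet the libraries of both genes lay close together beside the gap between diets. The log2 fold change was 8.20 ± 0.07 for *Mmp12* (limma, adjusted p = 5.37e-10) and 7.60 ± 0.09 for *Mmp7* (limma, adjusted p = 3.66e-09).

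Because the ND levels of these genes rest on few reads, the ratio of pooled reads was also taken, scaled between diets as TPM is. Its exact 95% interval covers counting error only. *Mmp12* had 40359 reads in CDA-HFD and 40 in ND livers, a ratio of 867 (637 to 1214). *Mmp7* had 5846 reads in CDA-HFD and 5 in ND livers, a ratio of 1005 (430 to 3095). The intervals overlap, so the order of the 2 genes by fold was not settled at this depth. Exons of *Mmp12* overlap those of *Mmp1b* on the other strand over 157 bp, and those of *Mmp7* overlap *AV064505* over 123 bp, where reads could count for either gene if strand was not used.

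Both genes belong to a cluster of 10 MMP genes on chromosome 9, in GENCODE M21 on GRCm38 at chr9:7272514-7699585, a stretch of 427 kb with the order *Mmp13*, *Mmp12*, *Mmp1b*, *Mmp3*, *Mmp1a*, *Mmp10*, *Mmp8*, *Mmp27*, *Mmp20*, *Mmp7*. In the cluster, 6 genes were called higher, and the other 4 were at or near 0 in every library. All 6 called genes had an ND mean below 1 TPM, so they passed the filter only through CDA-HFD livers. In that class 73.8% of all tested genes were called higher. The promoters of cluster genes are shown because the called genes and those near 0 carry much the same short element, the letters TGANTCA, which the AP-1 transcription factors (dimers of Fos and Jun proteins) are known to bind. The letters are their own reverse complement, so that 1 search covers both strands. Each line gives the 100 bases before a RefSeq start (GRCm38.p6, on the gene's strand), with the element in capitals. The first 4 genes were called higher.

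Mmp13 (chr9:7272414-7272513, plus strand): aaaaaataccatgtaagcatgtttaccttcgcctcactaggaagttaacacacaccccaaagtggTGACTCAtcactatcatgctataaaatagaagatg
Mmp12 (chr9:7347274-7347373, plus strand): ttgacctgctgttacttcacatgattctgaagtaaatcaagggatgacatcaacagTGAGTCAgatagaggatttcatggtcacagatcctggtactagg
Mmp3 (chr9:7445722-7445821, plus strand): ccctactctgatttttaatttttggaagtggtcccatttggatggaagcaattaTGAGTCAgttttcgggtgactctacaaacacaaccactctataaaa
Mmp7 (chr9:7691990-7692089, plus strand): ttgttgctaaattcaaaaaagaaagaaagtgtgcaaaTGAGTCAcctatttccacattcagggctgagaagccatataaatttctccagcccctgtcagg
Mmp1b (chr9:7388027-7388126, minus strand): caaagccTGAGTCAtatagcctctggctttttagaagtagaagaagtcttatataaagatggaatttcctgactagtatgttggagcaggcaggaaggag
Mmp1a (chr9:7464041-7464140, plus strand): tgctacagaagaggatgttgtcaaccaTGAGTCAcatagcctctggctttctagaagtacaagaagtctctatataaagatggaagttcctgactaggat
Mmp10 (chr9:7502242-7502341, plus strand): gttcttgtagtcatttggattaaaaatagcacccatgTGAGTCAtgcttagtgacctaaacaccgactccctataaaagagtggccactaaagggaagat
Mmp20 (chr9:7628131-7628230, plus strand): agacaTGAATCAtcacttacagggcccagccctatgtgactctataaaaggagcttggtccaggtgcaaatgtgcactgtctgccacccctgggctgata

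The element began 35 bases before the start in *Mmp13*, 44 in *Mmp12*, 46 in *Mmp3*, 63 in *Mmp7* and *Mmp10*, 73 in *Mmp1a*, 93 in *Mmp1b* and 95 in *Mmp20*. RefSeq lists a further start each for *Mmp12* and *Mmp7*, without the letters in its promoter. In windows of 250 bases before to 50 after a start, 8 of the 10 cluster genes held the letters, as did 5 of the 44 other protease and inhibitor genes found in the promoter table (*Adam1b*, *Adam25*, *Adam20*, *Adam29* and *Adam19*). Of all 27025 genes in the table, 8.97% held them in any promoter, and of all 32851 promoters 7.81%. Of the 8 cluster genes with the letters 4 were called and 4 were at or near 0, while *Mmp8* and *Mmp27*, without the letters in this window, were both called, so the letters did not sort the called genes from the others. A match is a run of letters and no measured binding site.

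*Mmp13*, the main interstitial collagenase of rodents, was at 10.6, 9.81 and 10.1 TPM in CDA-HFD and at 0.121, 0.168 and 0.222 TPM in ND livers. The 2 sets of libraries lay far apart, with a log2 fold change of 3.25 ± 0.11 (limma, adjusted p = 1.99e-07). It rested on 619 reads in CDA-HFD and 9 in ND livers, a ratio of 59.1 (30.9 to 130). *Mmp3*, which encodes stromelysin-1, was at 3.42, 2.27 and 3.7 TPM in CDA-HFD and at 0.18, 0.0832 and 0.0823 TPM in ND livers. Its rise of 1.87 ± 0.17 stood on 130 reads in CDA-HFD and 4 in ND livers, a ratio of 27.9 (10.6 to 104). *Mmp27*, the gene next to *Mmp8*, was at 4.0, 3.81 and 3.63 TPM in CDA-HFD and at 0.372, 1.12 and 0.766 TPM in ND livers, a rise of 1.48 ± 0.18 that fell to 0.74, short of a call, after quantile normalization.

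*Mmp8*, the neutrophil collagenase gene, was at 3.76, 5.99 and 4.45 TPM in CDA-HFD and at 0.134, 0.0618 and 0.183 TPM in ND livers. CDA-HFD replicate 2 was highest, and no CDA-HFD library came near the ND libraries (log2 fold change 2.33 ± 0.17, limma, adjusted p = 9.62e-06, on 260 reads in CDA-HFD and 6 in ND livers). The 10 neutrophil markers summed to 117, 182 and 170 TPM in CDA-HFD and 26.6, 28.3 and 20.1 TPM in ND livers. All 6 tested neutrophil markers were called higher, but *Ly6g*, which defines mature neutrophils, was at 0.14 ± 0.0106 TPM in CDA-HFD and at 0 in all 3 ND livers. The part of neutrophils in the *Mmp8* rise was not tested.

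The 4 quiet genes of the cluster lie between the called ones. *Mmp10*, which encodes stromelysin-2, had 2, 2 and 1 reads in CDA-HFD and 0 in each ND library. The exact 95% interval of the ratio began at 0.787, so the read counts did not settle a difference at this depth. With no filter the log2 fold change was 0.18 ± 0.05 (limma, adjusted p = 0.0285), far short of the fold limit. *Mmp1a* and *Mmp20*, the enamel protease gene, had 1 read each in CDA-HFD and 0 in ND livers, and *Mmp1b* had 0 in all 6 libraries.

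**Figure D2:**
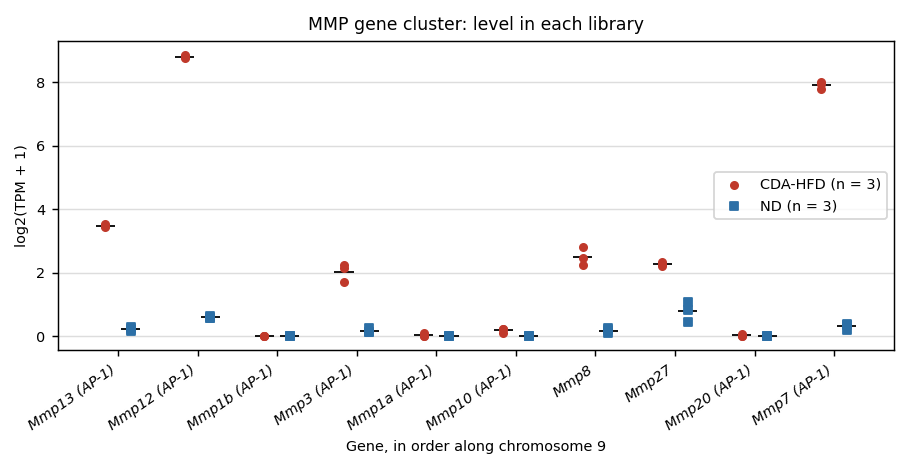
Level of the 10 MMP genes of the chromosome 9 cluster, in the order of the chromosome but not to scale, as log2(TPM + 1) in each library (circles, CDA-HFD, squares, ND, n = 3 each, bars the mean). Genes marked AP-1 hold the letters TGANTCA in a RefSeq promoter, and among them *Mmp13*, *Mmp12*, *Mmp3* and *Mmp7* were called higher, while *Mmp1b*, *Mmp1a*, *Mmp10* and *Mmp20* were at or near 0. Each called gene of the cluster had an ND mean below 1 TPM and passed the filter only through CDA-HFD livers.

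Outside the cluster, *Mmp2* and *Mmp14* were called higher from levels well above 1 TPM in ND livers. They were 1 of 2 tested gelatinase genes and 1 of 2 tested genes of membrane-bound MMPs, of which there are 6. *Mmp2*, the gelatinase A gene of stellate cells and fibroblasts, was at 105, 90.0 and 102 TPM in CDA-HFD and at 4.16, 3.51 and 3.42 TPM in ND livers. *Mmp14* encodes the membrane-bound enzyme that activates pro-MMP2 on the cell surface, and was at 91.3, 104 and 98.6 TPM in CDA-HFD and at 27.9, 31.4 and 24.7 TPM in ND livers. Neither gene's groups came near each other. The log2 fold change was 4.41 ± 0.10 for *Mmp2* (limma, adjusted p = 3.33e-08) and 1.77 ± 0.10 for *Mmp14* (limma, adjusted p = 1.95e-06), so that the levels of the enzyme and its activator, 26.7-fold and 3.50-fold higher, came out alike in CDA-HFD livers at 98.7 ± 7.67 and 97.8 ± 6.23 TPM (SD, n = 3).

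*Mmp23*, whose product lacks the hemopexin domain of other MMPs, averaged 17.7 ± 3.22 TPM in CDA-HFD and 1.53 ± 0.139 TPM in ND livers, a rise of 2.87 ± 0.14. *Mmp11*, which encodes stromelysin-3, rose by 2.01 ± 0.12 and averaged 6.96 ± 0.686 TPM in CDA-HFD and 0.978 ± 0.132 TPM in ND livers (SD, n = 3 each). *Mmp15*, which encodes a second membrane-bound MMP, averaged 71.5 ± 1.3 TPM in CDA-HFD and 38.9 ± 2.81 TPM in ND livers. Its log2 fold change of 0.86 ± 0.07 passed the p limit (limma, adjusted p = 1.73e-05) and missed the fold limit, although its groups did not overlap.

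*Mmp19* and *Mmp9* stood apart from the rest of the MMP genes. *Mmp19*, a gene of a widely expressed basement membrane-cleaving MMP, was at 37.7, 43.6 and 38.7 TPM in CDA-HFD and at 63.2, 67.9 and 58.7 TPM in ND livers, lower in every CDA-HFD library. The log2 fold change of -0.65 ± 0.08 (limma, adjusted p = 0.000246) was short of the fold limit and was called under median-of-ratios scaling (-1.04), and 22.8% of its exon length overlaps *Tmem198b* on the other strand. *Mmp9*, the gelatinase B gene of neutrophils and macrophages, was at 2.74, 3.06 and 2.45 TPM in CDA-HFD and at 2.81, 1.27 and 1.35 TPM in ND livers. ND replicate 1 lay within the CDA-HFD range, and the difference of 0.45 ± 0.21 did not pass (limma, adjusted p = 0.0912). It was 0.69 without ND replicate 1, where it passed the p limit (adjusted p = 0.00571, in a range of 0.00571 to 0.471 over the alternatives), and turned to -0.27 after quantile normalization.

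All 3 tested TIMP genes were called higher on deposited TPM, under median-of-ratios scaling and after quantile normalization. Over all tested genes these scales had 21.1%, 15.6% and 11.7% called higher. *Timp1* had an ND mean below 1 TPM, a class in which 73.8% of all tested genes were called higher on deposited TPM. *Timp1*, the secreted inhibitor gene widely used as a fibrosis marker, was at 48.7, 45.1 and 54.2 TPM in CDA-HFD and at 0.912, 0.844 and 0.167 TPM in ND livers. ND replicate 3 was the lowest, and the log2 fold change was 4.97 ± 0.19 (limma, adjusted p = 3.16e-07), with 1004 reads in CDA-HFD and 11 in ND livers. *Timp2*, whose product both inhibits MMPs and bridges MMP14 to pro-MMP2, was at 177, 179 and 174 TPM in CDA-HFD and at 15.6, 15.4 and 15.3 TPM in ND livers, with hardly any spread within a diet (3.44 ± 0.06, limma, adjusted p = 1.29e-08). *Timp3*, whose product is held in the matrix and also inhibits ADAM17 and several ADAMTS proteases, was at 88.4, 85.3 and 84.1 TPM in CDA-HFD and at 19.5, 20.1 and 20.3 TPM in ND livers (2.05 ± 0.06, limma, adjusted p = 1.1e-07). *Timp4* stayed under the filter, with 10, 10 and 14 reads in CDA-HFD and 0, 1 and 0 in ND livers, a ratio of 29.2 (4.9 to 1188).

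The rises changed which genes made up each family's transcripts. Summed over the family, MMP genes came to 1013, 1064 and 1059 TPM in CDA-HFD and 145, 148 and 130 TPM in ND livers, and TIMP genes to 315, 310 and 313 TPM in CDA-HFD and 36.0, 36.3 and 35.8 TPM in ND livers. *Mmp12* made up 41.4% to 43.5% and *Mmp7* 21.8% to 23.9% of MMP transcripts in CDA-HFD livers, against 0.337% to 0.383% and 0.107% to 0.21% in ND livers. In ND livers *Mmp19* led with 43.6% to 46.0%, a share of 3.65% to 4.1% in CDA-HFD livers. Among TIMP genes, *Timp2* had 55.7% to 57.9% in CDA-HFD and 42.3% to 43.4% in ND livers, *Timp3* 26.9% to 28.1% in CDA-HFD and 54.0% to 56.8% in ND livers, and *Timp1* 14.5% to 17.3% in CDA-HFD and 0.466% to 2.53% in ND livers.

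The ratio of summed MMP to summed TIMP transcripts was 3.22, 3.43 and 3.38 in CDA-HFD and 4.02, 4.06 and 3.62 in ND livers, so it was lower in every CDA-HFD library. Without *Mmp12* and *Mmp7* it was 1.14, 1.15 and 1.17 in CDA-HFD and 4.0, 4.04 and 3.6 in ND livers. These 2 genes were picked as the largest rises in these data, with ND means of 0.512 and 0.241 TPM. Leaving them out could therefore lower the ratio by much only in CDA-HFD livers. Most of the MMP side of the ratio in CDA-HFD livers thus lay in 2 genes. The ratio is of transcripts and holds nothing on zymogen activation, secretion or enzyme activity.

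**Figure D3:**
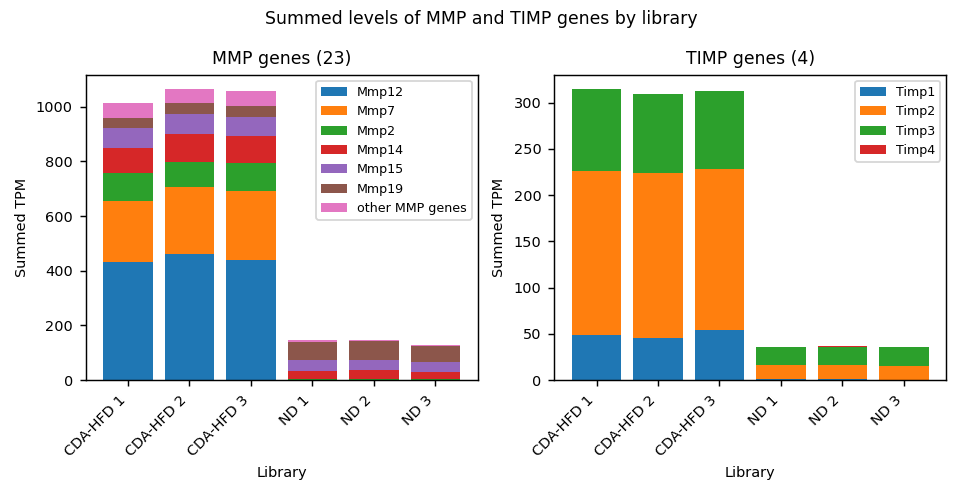
Summed level of the 23 MMP genes (left) and the 4 TIMP genes (right) in each library, in TPM from 0, with the leading genes as coloured segments. In CDA-HFD libraries *Mmp12* and *Mmp7* fill most of the MMP bar and *Timp2* most of the TIMP bar, while in ND libraries the MMP bar is mostly *Mmp19*, *Mmp15* and *Mmp14*.

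The ADAM genes moved less evenly, with 5 of 10 tested genes called higher and 1 called lower. The higher calls were 2 of 6 genes with an ND mean of at least 1 TPM and 3 of 4 below it. Over all genes these classes had 15.6% and 73.8% called higher. *Adam8* (chr7:139978932-139992562), a sheddase gene of myeloid cells, was at 113, 144 and 124 TPM in CDA-HFD and at 0.208, 0.24 and 0.333 TPM in ND livers. It rose by 6.66 ± 0.11 (limma, adjusted p = 1.29e-08), with 8996 reads in CDA-HFD and 16 in ND livers, a ratio of 483 (297 to 846), and shares 46 bp of exon with *Gm16201* on the other strand. *Adam15*, whose product binds integrins through its disintegrin domain, was at 25.3, 29.9 and 26.8 TPM in CDA-HFD and at 3.32, 3.17 and 2.69 TPM in ND livers, with no overlap (2.80 ± 0.11, limma, adjusted p = 2.72e-07). In *Adam15*, 24.7% of the exon length overlaps the antisense gene *4731419I09Rik*.

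*Adam10* and *Adam17* encode the main sheddases of Notch receptors and of TNF and the epidermal growth factor receptor ligands. *Adam10* was at 79.0, 76.6 and 64.3 TPM in CDA-HFD and at 31.7, 31.2 and 29.6 TPM in ND livers, a rise of 1.22 ± 0.09 that was 0.82 under median-of-ratios scaling and 0.94 after quantile normalization, where it was no longer called. *Adam17* was at 36.8, 33.7 and 31.5 TPM in CDA-HFD and at 19.8, 18.5 and 17.5 TPM in ND livers. Its libraries did not overlap, and the difference of 0.83 ± 0.09 passed the p limit (limma, adjusted p = 6.56e-05) but missed the fold limit.

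*Adam33* and *Adam32* were low in both diets. *Adam33*, a gene of mesenchymal cells, was at 2.79, 2.81 and 1.8 TPM in CDA-HFD and at 0.154, 0.142 and 0.421 TPM in ND livers (1.48 ± 0.18), and fell to 0.75, short of a call, after quantile normalization. *Adam32*, known from the male reproductive tract, was at 2.88, 1.29 and 2.12 TPM in CDA-HFD and at 0.322, 0.239 and 0.766 TPM in ND livers (1.09 ± 0.23, limma, adjusted p = 0.00382). Its call was lost at 0.99 without ND replicate 2, at 0.89 under median-of-ratios scaling and at 0.34 after quantile normalization. All 6 testis germ cell markers were at 0 in all 6 libraries.

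*Adam11* was the only gene of the 41 that was called lower. It encodes an ADAM without a working protease site, known from the nervous system, and was at 4.46, 5.28 and 4.4 TPM in CDA-HFD and at 18.5, 17.2 and 15.2 TPM in ND livers. The groups did not overlap (-1.65 ± 0.11, limma, adjusted p = 5.83e-06). *Adam23*, its relative with the same lack of a protease site, was at 15.6, 13.6 and 12.8 TPM in CDA-HFD and at 7.26, 8.01 and 6.91 TPM in ND livers, a difference of 0.84 ± 0.10 that missed the fold limit. *Adam19*, which encodes meltrin beta, a sheddase of neuregulin, was at 2.92, 2.3 and 1.56 TPM in CDA-HFD and at 0.914, 0.869 and 0.58 TPM in ND livers. It missed the fold limit at 0.85 ± 0.19, and was called at 1.01 without CDA-HFD replicate 3, with pseudocounts of 0.1 (1.39) and 0.5 (1.08) and with voom (1.43). *Adam9*, a widely expressed sheddase gene and the highest of the 85 genes in ND livers, was at 86.6, 82.2 and 73.6 TPM in CDA-HFD and at 91.9, 85.6 and 83.4 TPM in ND livers, where the groups overlapped (-0.11 ± 0.08, limma, adjusted p = 0.253).

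Of the 11 tested ADAMTS genes, 8 were called higher and none lower, 3 of 5 with an ND mean of at least 1 TPM and 5 of 6 below it. For all tested genes the shares called higher in these classes were 15.6% and 73.8%. The proteoglycan-cleaving ADAMTS genes, which cut aggrecan and versican, were called in 5 of 5 tested cases. Of these, 4 had an ND mean below 1 TPM, a class in which 73.8% of all genes were called higher. *Adamts5* was at 9.75, 7.32 and 8.79 TPM in CDA-HFD and 0.811, 0.542 and 0.782 TPM in ND livers (2.49 ± 0.14, limma, adjusted p = 2.32e-06). *Adamts1* was at 39.6, 21.4 and 21.8 TPM in CDA-HFD and at 5.11, 6.26 and 5.31 TPM in ND livers. CDA-HFD replicate 1 stood high, and the rise of 2.07 ± 0.22 was 1.79 without it. The others, *Adamts15* (1.99 ± 0.15), *Adamts4* (1.66 ± 0.16) and *Adamts9* (1.62 ± 0.17), were each below 7 TPM in every library, and *Adamts4* and *Adamts9* were no longer called after quantile normalization, at 0.91 and 0.89.

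*Adamts2* (chr11:50602084-50807573), which encodes the main enzyme that cuts the amino-terminal propeptide from fibrillar procollagens, was at 29.9, 25.9 and 29.0 TPM in CDA-HFD and at 2.21, 2.0 and 2.07 TPM in ND livers. The libraries were tight within each diet, and the rise was 3.24 ± 0.10 (limma, adjusted p = 1.03e-07). *Adamts14*, with the same known activity, averaged 2.02 TPM in CDA-HFD and 0.579 TPM in ND livers and missed the fold limit at 0.93 ± 0.14, and was called with pseudocounts of 0.1 (1.64) and 0.5 (1.22) and with voom on recovered reads (1.72). *Adamts12*, which like *Adamts7* encodes a protease of cartilage oligomeric matrix protein, was at 7.35, 5.77 and 5.27 TPM in CDA-HFD and at 0.264, 0.192 and 0.276 TPM in ND livers (2.51 ± 0.15). *Adamts7* was at 4.79, 4.75 and 5.12 TPM in CDA-HFD and at 5.17, 4.1 and 3.59 TPM in ND livers, so the groups overlapped (0.16 ± 0.13, limma, adjusted p = 0.302), and the sign of the difference turned to -0.16 under median-of-ratios scaling.

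*Adamts10*, whose product binds fibrillin microfibrils, was at 10.1, 8.05 and 7.39 TPM in CDA-HFD and at 1.41, 1.4 and 1.36 TPM in ND livers, a rise of 1.98 ± 0.13. *Adamts13* encodes the protease that trims von Willebrand factor and is known to be made by stellate cells. It was at 5.55, 3.56 and 4.28 TPM in CDA-HFD and at 2.66, 2.55 and 2.7 TPM in ND livers, without overlap, and the difference of 0.57 ± 0.15 (limma, adjusted p = 0.0103) was short of the fold limit and turned to -0.14 after quantile normalization. CDA-HFD replicate 1 was the highest of the CDA-HFD libraries for 10 of the 11 ADAMTS genes and for 22 of all 41 tested genes, beside 45.8% of all tested genes.

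The ADAMTSL genes encode matrix proteins without protease activity, and all 4 tested were called higher, 2 of them with an ND mean below 1 TPM, with 2 of the calls lost after quantile normalization. Of all tested genes, 15.6% with an ND mean of at least 1 TPM and 73.8% below it were called higher. *Adamtsl2* (chr2:27079379-27108981), whose product binds fibrillin and the latent TGFβ-binding protein, was at 163, 141 and 165 TPM in CDA-HFD and at 4.53, 4.9 and 4.84 TPM in ND livers. This rise of 4.77 ± 0.08 (limma, adjusted p = 1.53e-08), a ratio of 33.0 (29.6 to 36.9) from 12934 reads in CDA-HFD and 337 in ND livers, was followed by smaller ones. *Adamtsl4*, also known for binding fibrillin, was at 10.5, 9.85 and 11.5 TPM in CDA-HFD and at 1.77, 2.04 and 1.73 TPM in ND livers (2.03 ± 0.11). *Adamtsl5* rose by 1.69 ± 0.14 and *Adamtsl1* by 1.47 ± 0.15, and these 2 stood at 0.96 and 0.72 after quantile normalization. *Adamtsl3* was under the filter, with 91 reads in CDA-HFD and 6 in ND livers.

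Ranked by level, the leading genes of the 2 diets differed. In CDA-HFD livers the order was *Mmp12* (445 ± 15.8 TPM), *Mmp7* (240 ± 16.9 TPM), *Timp2* (177 ± 2.48 TPM), *Adamtsl2* (156 ± 13.3 TPM) and *Adam8* (127 ± 15.7 TPM), where only the libraries of *Adamtsl2* and *Adam8* overlapped between neighbours. In ND livers it was *Adam9* (87.0 ± 4.42 TPM), *Mmp19* (63.3 ± 4.59 TPM), *Mmp15* (38.9 ± 2.81 TPM), *Adam10* (30.8 ± 1.12 TPM) and *Mmp14* (28.0 ± 3.38 TPM), of which *Adam10* and *Mmp14* overlapped. No gene was among the first 5 of both orders.

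Of the 44 genes that were not tested, 17 were at 0 in all 6 libraries and 27 had a value above 0 somewhere. The groups did not overlap for 15 of the 44, all with CDA-HFD higher. The share among all untested genes was not taken, so this count is no result about these genes. *Mmp17*, which encodes a membrane-bound MMP, lay just under the filter with 99, 62 and 76 reads in CDA-HFD and 11, 10 and 10 in ND livers, and its log2 fold change was 1.06 ± 0.13 when no filter was set. *Adamts6* had 195 reads in CDA-HFD and 71 in ND livers, a ratio of 2.36 (1.79 to 3.14), and *Adam12*, a gene of activated stellate cells, 132 in CDA-HFD and 30 in ND livers, a ratio of 3.78 (2.53 to 5.82). *Adamts3*, the third procollagen N-proteinase gene, had 88 reads in CDA-HFD and 10 in ND livers, a ratio of 7.56 (3.92 to 16.3).

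The lowest genes carried little information at this depth. *Adam5*, of the male reproductive tract, had 2, 2 and 6 reads in CDA-HFD and 0 in each ND library, and the exact 95% interval of the ratio began at 1.93. Of 21 ADAM genes known from the male reproductive tract, 11 were at 0 in all libraries. Several of these, such as *Adam6a* with *Adam6b* and *Adam26a* with *Adam26b*, are close copies, and how reads that match more than 1 place were counted is not stated, so their 0 is a listed value and not an absence.

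The changes depended on the scale. The median log2 fold change of all tested genes was 0.32 on deposited TPM, -0.04 after median-of-ratios scaling and -0.11 after quantile normalization. The share of calls over all genes that were higher in CDA-HFD was 84.8%, 69.0% and 58.9% on these scales. Protease and inhibitor genes were called higher in 30, 28 and 22 cases and lower in 1, 2 and 1, where all tested genes had 15.6% higher and 7.01% lower calls under median-of-ratios scaling and 11.7% and 8.15% after quantile normalization. By family the calls higher under quantile normalization were 9 of 13 MMP, 6 of 11 ADAMTS, 2 of 10 ADAM, 2 of 4 ADAMTSL and 3 of 3 TIMP genes.

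**Figure D4:**
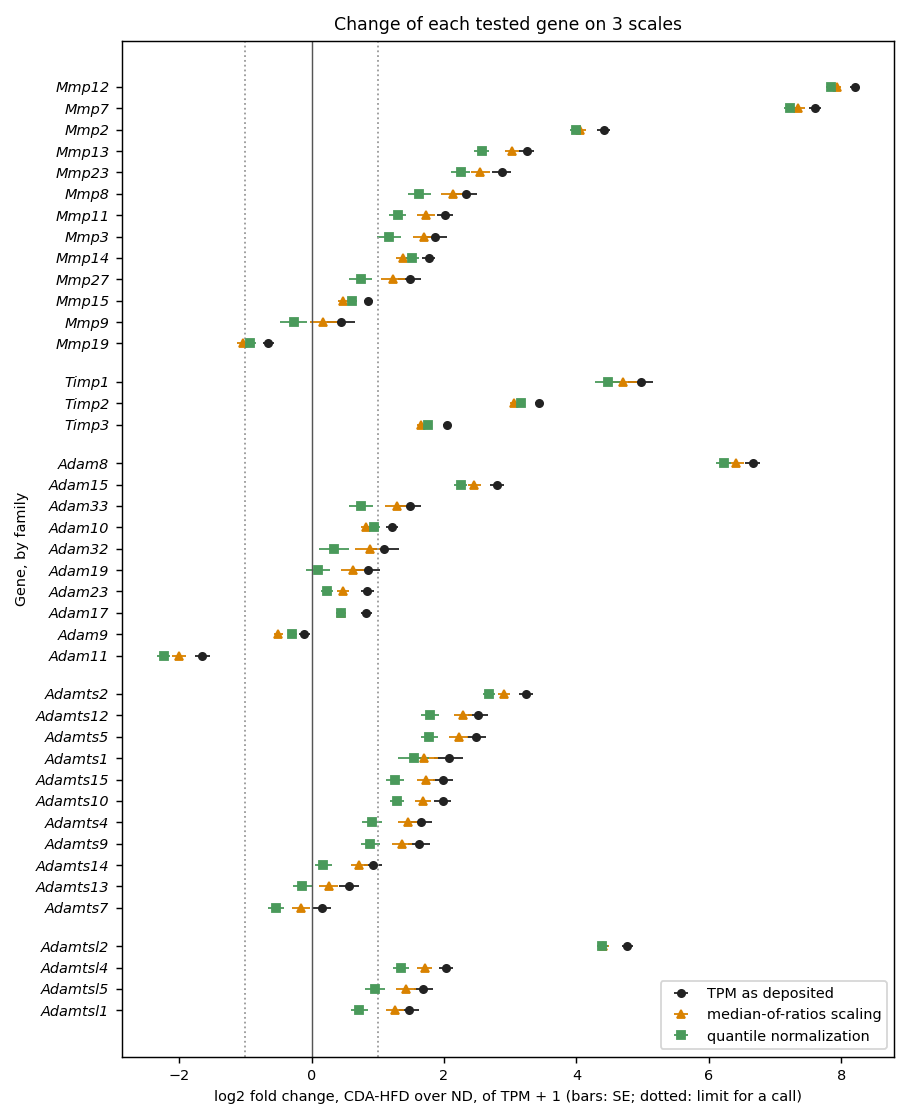
Log2 fold change of CDA-HFD over ND for each of the 41 tested genes on 3 scales (black circles, TPM as deposited, orange triangles, median-of-ratios scaling, green squares, quantile normalization), with bars for the SE and dotted lines at the fold limit of 1 in size. *Mmp12*, *Mmp7* and *Adam8* stay far to the right on each scale, while *Adamts7*, *Adamts13* and *Mmp9* change sign on at least 1 of them.

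Genes that act on these proteases were also read from lists of known partners. Over all tested genes 21.1% were called higher and 3.79% lower, to be read beside the counts of each list below. Genes that passed the filter only through CDA-HFD livers raise the counts of higher calls, and the lists were not split by ND level. Of 12 tested genes of the plasmin system and of zymogen activation, which free MMPs from their propeptide, 6 were called higher and none lower, with a median log2 fold change of 1.23 beside 0.32 for all genes. *Plat*, the tissue plasminogen activator gene, averaged 42.0 ± 0.993 TPM in CDA-HFD and 0.899 ± 0.387 TPM in ND livers (4.52 ± 0.15), and *Plaur*, the gene of the urokinase receptor, 30.9 ± 1.4 TPM in CDA-HFD and 0.647 ± 0.137 TPM in ND livers (4.28 ± 0.11). *Plg*, the gene of plasminogen itself, which hepatocytes make, is named after its values were seen. It was at 1172, 1337 and 1182 TPM in CDA-HFD and at 1971, 2156 and 2069 TPM in ND livers, a difference of -0.75 ± 0.07 that was short of the fold limit. Under median-of-ratios scaling 2 of the 12 genes were called lower.

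Among other inhibitors, inducers and clearance receptors of metalloproteinases, 4 of 12 tested genes were called higher and 2 lower, with a median of 0.12. *Thbs2* (3.73 ± 0.11) and *Thbs1* (3.50 ± 0.17), genes of thrombospondins that bind MMPs, rose most, and under median-of-ratios scaling the list had 3 calls higher and 4 lower. *Mug2*, a gene of the α2-macroglobulin family of protease traps, fell by 1.28 on the log2 scale and averaged 188 ± 13.9 TPM in CDA-HFD and 459 ± 33.6 TPM in ND livers, and *Tfpi2*, the gene of a secreted inhibitor of plasmin and other serine proteases, fell by 1.19 and averaged 82.1 ± 1.05 TPM in CDA-HFD and 189 ± 9.33 TPM in ND livers. Of 10 tested genes of other matrix-cleaving proteases 5 were called higher and none lower (median 1.08), with *Ctsk*, the gene of the collagen-cleaving cathepsin K, at 60.3 ± 7.24 TPM in CDA-HFD and 1.02 ± 0.402 TPM in ND livers (4.94 ± 0.16), and *Htra3*, the gene of a serine protease, at 42.5 ± 1.78 TPM in CDA-HFD and 1.3 ± 0.344 TPM in ND livers (4.25 ± 0.12).

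Of 8 tested partners of ADAM17 and ADAM10, 5 were called higher and 1 lower (median 1.18). *Rhbdf1* and *Rhbdf2*, the iRhom genes that carry ADAM17 to the cell surface, rose by 1.97 ± 0.10 and 1.57 ± 0.08. *Tspan33*, the gene of a tetraspanin that guides ADAM10, fell by 1.97 on the log2 scale and was at 10.4, 9.19 and 12.3 TPM in CDA-HFD and at 48.1, 40.6 and 44.9 TPM in ND livers. Calls in this list were 3 higher and 1 lower under median-of-ratios scaling and 2 higher and 2 lower after quantile normalization. Of 25 tested substrates of ADAM17 and ADAM10, 16 were called higher and none lower (median 1.5), led by *Trem2* (6.66 ± 0.20), the lipid receptor gene of macrophages, and *Cx3cl1* (3.59 ± 0.12), the gene of fractalkine. Without a fold limit, the groups stood apart with CDA-HFD higher for 21 of the 25 and lower for 4, beside 54.9% and 16.1% of all tested genes. *Trem2*, *Csf1r* and *Mertk* of this list are also among the macrophage markers above. The scaled tables gave 14 higher and 2 lower, and 11 higher and none lower, of the same 25.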

How the data were processed

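Whole-liver RNA of CDA-HFD-fed and ND-fed mice was sequenced from 3 Nextera XT libraries per diet. The authors deposited 1 table of TPM values with a column per library, each summing to 1000000. The submitters' processing notes list Trimmomatic 0.39.0 for trimming, HISAT2 2.2.1 for alignment, featureCounts 2.0.1 for gene counts and the builds GRCm38 and mm10, and the study's methods describe removal of PCR duplicates, which can lower the counts of very high genes. The annotation release and the use of strand in counting are not given in the sources used here.

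Libraries were grouped by their labels. Genes that averaged 1 TPM or more were fitted as log2(TPM + 1) with limma 3.58.1 in R 4.3.3 (diet as the only term, empirical Bayes with a trend, two-sided, Benjamini-Hochberg over 14730 genes). The smallest p that exact permutation allows with 3 libraries a side is 0.1, so it was not used. Whole reads were recovered from the TPM steps with exon lengths of GENCODE M21 (53149 of the 55254 genes had a length, and 98.4% to 98.5% of values came within 0.01 of a whole number), for all but *Adamts2* and *Adam34l* among the 85 genes. They gave exact 95% intervals, which cover counting error only. Libraries of 1 diet differed from each other by more than sampling noise. Promoters are RefSeq's (54 of the 85 genes matched), and protein sequences were not used here. The fit was tested on simulated data.

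Alternatives were other pseudocounts, filters, scalings, eBayes settings and thresholds, a replicate block and each library left out. Voom on the recovered reads was added after the data were seen. The genes and lists were chosen with earlier results of these data known. Genes named by rule were, per family, up to 8 called genes by size of change, every TIMP, the highest gene not called and those whose call an alternative ended, genes under the filter read in all 3 libraries of 1 diet alone, and the 2 largest rises and falls of each partner list. Other members were named after their values were seen.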

Additional observations from a re-analysis of the deposited data

How the results depend on the processing

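The count of genes called higher, 30 of 41, was 28 under median-of-ratios scaling, 22 after quantile normalization, 16 (of 22 tested) at a mean of at least 5 TPM, 31 with no filter, 36 with no fold limit, 32 with pseudocounts of 0.1 or 0.5 and with voom on recovered reads, and 29 to 31 with a library left out. The count called lower was 1, and 2 under median-of-ratios scaling, where *Mmp19* joined *Adam11*, and with no fold limit, and 1 with each library left out. The sign reversed for *Adamts13* (-0.14) and *Mmp9* (-0.27) after quantile normalization, and for *Adamts7* under median-of-ratios scaling (-0.16) and quantile normalization (-0.53), and the cause was not tested. Of the 31 called genes, 23 kept their call in each of the alternatives that gave a value. The replicate block also gave 30 and 1 calls. Same-numbered libraries correlated at 0.086, 0.039 and 0.089 in their deviations from the group means, each library best with its own number, which is a hint from the data and no design. Genes with few ND reads, such as *Mmp7* with 5, have folds that are wide by counting alone.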
